A study of Caenorhabditis elegans with 2 samples.

Results

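The C-type lectin genes of Caenorhabditis elegans were examined in whole worms that had or had not met titanium dioxide nanoparticles. Members were all probe sets of the array whose platform annotation names a single gene, with a symbol made of clec- and a number. This gave 236 probe sets for 220 genes, out of 17118 genes read by 20766 probe sets that name a single gene. RefSeq (assembly WBcel235) annotates 202 of the 220 as protein-coding and 18 as pseudogenes. It lists 264 numbered clec genes in all, and the other 44 were not read by a probe set of their own here. Family membership was taken from the symbols, and the lectin domain itself was not checked.

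A C-type lectin-like domain is a protein fold that, in many animals, binds sugars on cells and microbes, often with calcium. The nematode family is very large, many of its proteins are predicted to be secreted, and many of its genes are expressed in the intestine. Groups of clec genes are known to be switched on when worms eat harmful bacteria, with different groups for different bacteria. Part of this control runs through the p38 MAP kinase PMK-1. For most members no function is known.

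Both groups were wild-type N2 worms, kept at 20 °C on agar with a uracil-requiring E. coli OP50 strain as food. Synchronized animals were then held in S-medium, a liquid worm medium, and the exposed group received anatase, a crystal form of titanium dioxide, at 500 µg/ml in the dark. The control label gives no exposure. Worm age and exposure time are not stated in the labels. RNA came from whole animals, so fewer cells of a type and less RNA per cell cannot be told apart.

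Each group has 1 array, called replicate 3 in both labels, so no difference below has a replicate error or a test. Median intensities over 22548 probe sets were 123.1 (control) and 117.8 (exposed). Differences are exposed minus control on the log2(intensity + 16) scale, which understates the folds of dim genes. A gene was compared if it was bright enough on at least the brighter of its readings, meaning that it reached the 25th percentile of that array (control 31.1, exposed 25.2). This left 13605 genes. The only technical spread in these data is that between probe sets of the same gene. Over 2293 genes with exactly 2 probe sets, the SD of the difference given by a single probe set was 0.32 log2 units. It went from 0.51 in the dimmest of 4 equal brightness groups to 0.18 in the brightest. Probe sets of a gene share the same 2 arrays, so this SD leaves out variation between worm samples and between arrays.

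The family covered nearly the whole range of the arrays. The lowest clec readings were 0.90 (control) and 0.40 (exposed), and the brightest probe set, that of clec-63, read 32699 and 28880. On the control array 31 of the 236 probe sets lay above 1000 and 66 below 16, and on the exposed array these counts were 30 and 81. The 10 brightest probe sets held 65.1% (control) and 64.8% (exposed) of the summed clec intensity. The sum itself was 1.12% and 1.09% of all intensity on these arrays. Intensities of different probe sets depend on their sequences, so they give no order of transcript levels between genes. The summed signal of the family thus lay close together on both arrays, while dim members scattered widely.

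**Figure D1:**
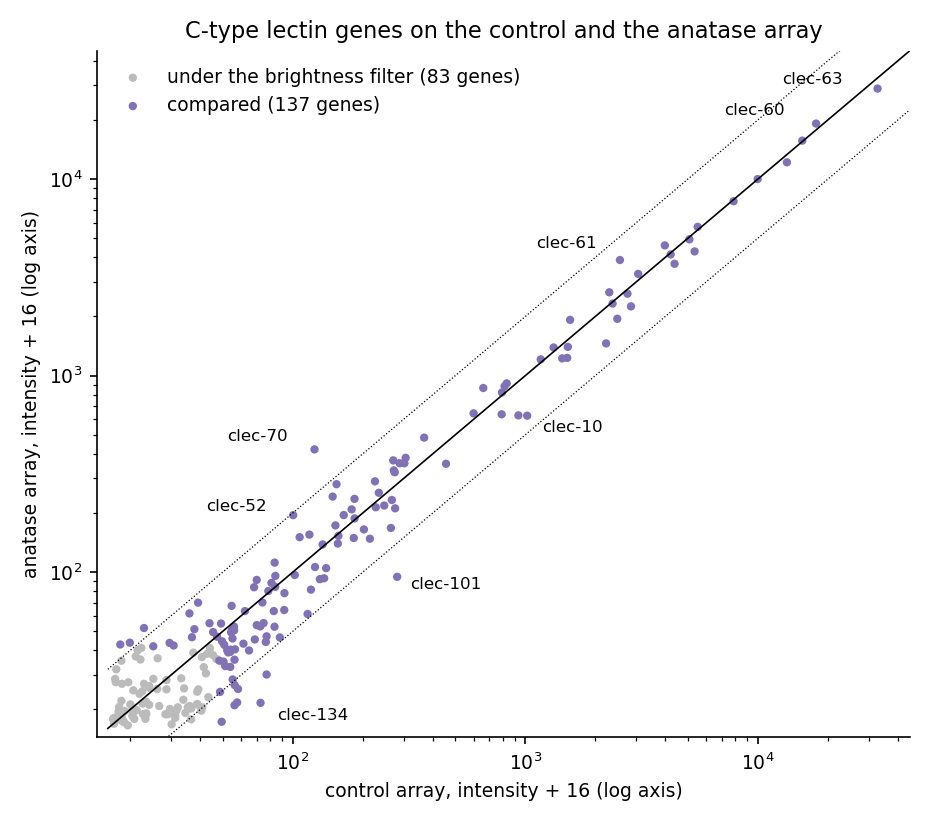
Each point is a C-type lectin gene, with its intensity + 16 on the control array (horizontal, log axis) and on the anatase array (vertical, log axis), and grey points are the 83 genes under the brightness filter. The solid line marks equal signal and the dotted lines 2-fold differences, and among brighter genes clec-70 lies above and clec-101 below these lines.

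Of the 220 genes, 137 passed the brightness filter (62.3%, against 79.5% of all genes). Among these 137, 78 were lower and 59 higher on the exposed array, with a median difference of −0.08. Over all 13605 genes compared, 53.2% were lower and the median was −0.02. At least 2-fold differences were read for 4 lectins higher (2.92%), against a background of 1.66% of all genes compared, and for 8 lower (5.84%), against 3.07%. The dimmest of the 4 brightness groups held 42.3% of the lectins compared, with 3 of the higher and 7 of the lower ones. After a loess correction 6 lectins were 2-fold higher and 7 lower, against 2.12% and 2.23% of all genes compared. Quantile normalization likewise gave 6 and 7, against 2.13% and 2.27%. Of the 137 lectins, 32 reached the filter on a single array only, 20 as controls and 12 when exposed. Since the thresholds of the arrays differ, the 20 had to read lower when exposed by a fixed margin, while the 12 had to read higher but by any amount. Together they make up 23.4% of the lectins compared, against 11.4% of all genes compared.

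Among the 105 lectins bright enough on both arrays, only clec-70 was at least 2-fold higher and only clec-101 at least 2-fold lower. The background at this stricter filter was 0.241% higher and 0.655% lower of 12054 genes. The median of these 105 lectins was −0.04, and 83 of them lay within 0.5 log2 units of equal signal (79.0%, against 88.1% of the 12054 genes).

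The picture differed between brightness groups. In the dimmest group, 40 of 58 lectins were lower, with a median of −0.39, against 61.1% lower and a median of −0.19 for all genes of that group. A loess correction brought this count to 33 of 58 and the median to −0.22. Without it, 3 of these 58 lectins were at least 2-fold higher and 7 lower, against 200 and 361 of the 3402 genes of that group. All 32 lectins that reached the filter on a single array only lay in this group. The filter fixed their signs, 20 lower and 12 higher, and the 3 and the 7 were all among them. In the next group 17 of 33 were lower (57.4% of all genes there), with a median of −0.04 that was 0.02 under median centring and 0.03 after the loess correction or quantile normalization. Of these 33 lectins, 1 was at least 2-fold higher and 1 lower, against 16 and 35 of the 3401 genes there. In the third group 4 of 14 lectins were lower (47.1% of all genes there) and 10 higher, with a median of 0.24 against 0.02 for all genes of that group, and 10 were higher under each of the 3 scalings. In the brightest group 17 of 32 were lower (47% of all genes there), with a median of −0.03, which was 0.03 with each array centred on its median. None of the 46 lectins in the brighter pair of groups differed 2-fold, against 0.47% of all genes there. Within 0.5 log2 units of equal signal lay 87.5% of lectins in the brightest group, against 95.5% of all genes there. In the third group these shares were 100% and 91.7%. No test of these differences between groups was possible.

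**Figure D2:**
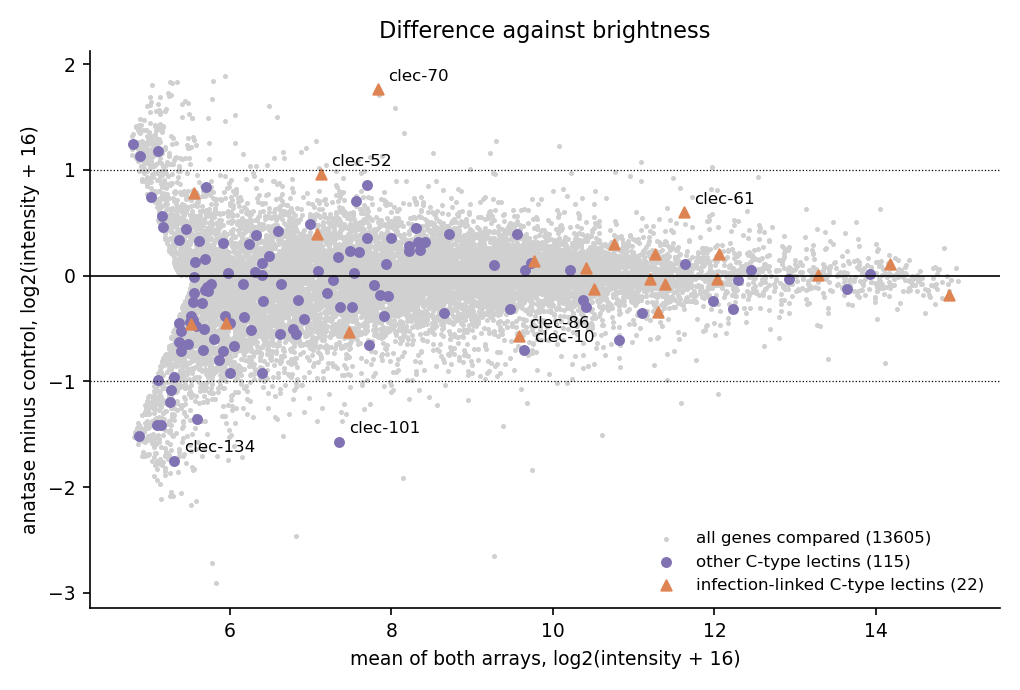
Difference between the arrays (vertical, exposed minus control) against mean brightness (horizontal), both in log2(intensity + 16), for all 13605 genes compared (grey), 22 infection-linked lectins (triangles) and 115 other lectins (circles). Dotted lines mark 2-fold, and the scatter narrows from the dimmest genes, where the filter leaves an empty wedge around 0, to the brightest.

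The largest higher value in the family was that of clec-70, a gene that reports on Staphylococcus aureus infection count among the induced lectins. Its single probe set, of the type made for this gene alone, read 108 without and 405 with anatase, a difference of 1.76. That was also the largest higher difference among the 12054 genes bright on both arrays. Next came 3 genes that were almost dark on the control array. clec-202 read 2.10 and 26.8, clec-182 read 6.90 and 35.9, and clec-190 read 3.90 and 27.7, with differences of 1.24, 1.18 and 1.13. None of the 3 reached the filter on the control array, so their folds are not well fixed.

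The other 6 of the 10 highest lectins were under 2-fold without rescaling. clec-52, a gene also induced in infected worms, read 84.3 and 178.8, a difference of 0.96 that passed 2-fold under each of the 3 scalings. clec-160 read 138 and 264 (0.86) through a shared probe set, a type that may also bind related transcripts. clec-37 read 132 and 226 (0.71). clec-143, clec-64 and clec-156 were dimmer, with exposed intensities of 53.9, 45.6 and 25.9 and differences of 0.84, 0.78 and 0.74. The difference of clec-143 was 1.02 after the loess correction and 1 after quantile normalization, and so reached 2-fold there. Thus clec-70, clec-52, clec-160 and clec-37 were the members of this set of 10 that reached the filter on both arrays. Each of the 10 was read by 1 probe set, so no second reading was at hand.

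In the other direction, clec-134 had the lowest difference, −1.75, from 56.6 without to 5.60 with anatase. clec-101 went from 265 to 78.6, a difference of −1.57. clec-101 was the only one of the 10 lowest lectins whose exposed intensity was above 16. The other 9 reached the filter on the control array only, so they had to read lower. clec-44, annotated as a pseudogene, read 33.4 and 1.30 (−1.51). clec-149 read 40.1 and 5.0 (−1.42), and clec-125 read 41.6 and 5.70 (−1.41). These exposed values are floor readings, so the order of these genes carries no weight.

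clec-197, clec-198 and clec-199 all belonged to the 10 lowest. clec-197 read 61.1 and 14.1 through a shared probe set, a difference of −1.36. clec-199 read 39.1 and 12.4, a difference of −0.96. clec-198 had 2 probe sets, which read 47.9 and 8.50 (−1.38) and 21.0 and 8.60 (−0.59). With protein-coding genes and pseudogenes alone counted between neighbours, these 3 genes form a run on chromosome IV with clec-201 and clec-202. clec-202 was the second highest lectin. However, the 3 genes reached the filter on the control array only and clec-202 on the exposed array only. The filter thus fixed the sign of each, so the mixed directions of this run carry no weight. clec-157, at −1.19, and clec-110, at −1.08, made up the rest of the set, and clec-110 was under 2-fold after the loess correction and after quantile normalization. With a pseudocount of 64 none of the 10 lowest except clec-101 and none of the 10 highest except clec-70 differed 2-fold.

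**Figure D3:**
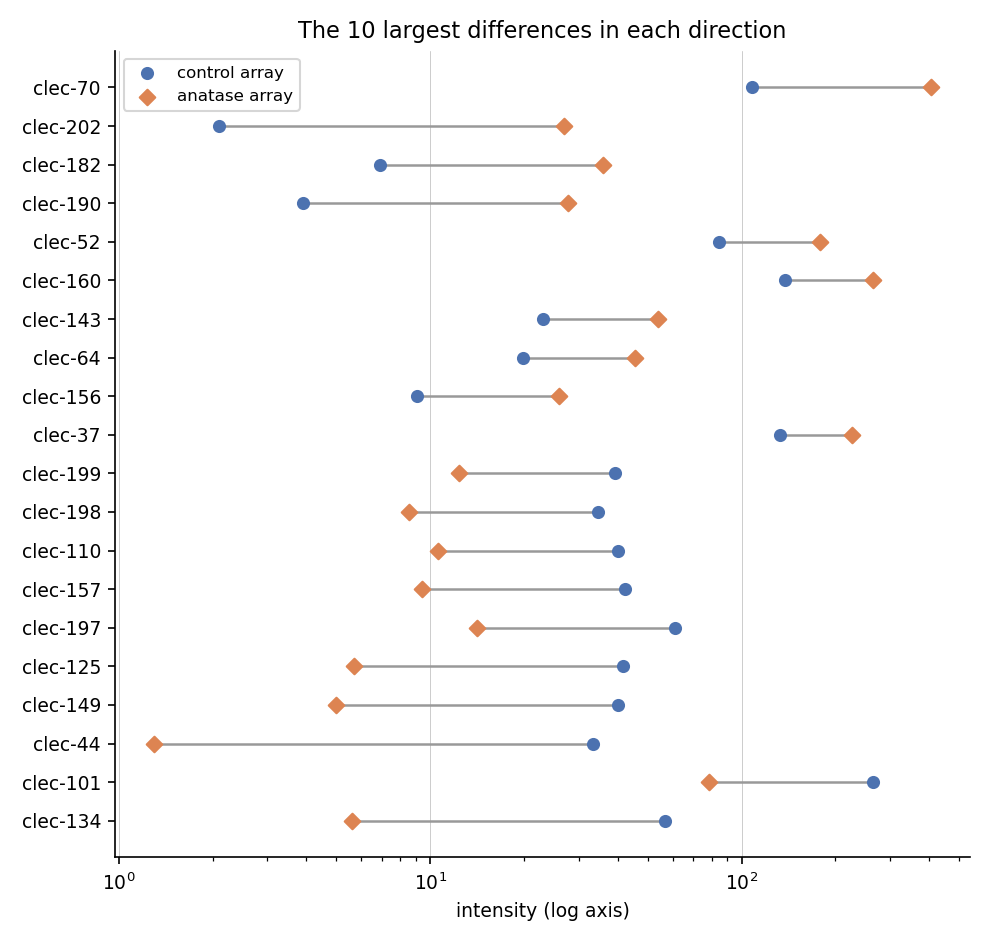
Intensities (horizontal, log axis) on the control array (circles) and the anatase array (diamonds) of the 10 lectins with the largest difference in each direction, in order of the difference on the log2(intensity + 16) scale. Long lines at low intensity, as for clec-44 (33.4 and 1.30), span dim readings, while clec-70 and clec-101 lie above 70 on both arrays.

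A list of 25 lectins tied to infection in worms was written from general knowledge of the family and not checked against publications. It held 24 measured genes, of which 22 passed the filter. Of these, 12 were higher and 10 lower, with a median difference of 0.04, and with each array centred on its median 14 were higher. Among the 20 listed genes that reached the filter on both arrays, 11 were higher and 9 lower. The other 115 lectins compared had 68 lower genes and a median of −0.14. The listed genes were mostly brighter: 15 of the 22 lay in the brighter pair of the brightness groups, where their median was 0.0032 and that of 31 other lectins 0.05. Without rescaling, clec-70 was the only listed gene past 2-fold, 1 of 22, against 1.66% higher and 3.07% lower of all genes compared, and clec-52 also passed under each of the 3 scalings.

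clec-60 and clec-61, neighbours that respond to intestinal infection, read higher on the exposed array. clec-60 had intensities of 17778 and 19155, a difference of 0.11. clec-61 had 2535 and 3858 through a shared probe set, a difference of 0.60, the highest among the 32 lectins of the brightest group. In the run of neighbours from clec-62 to clec-66, clec-62 was at 0.0032, clec-63 at −0.18, clec-64 at 0.78, clec-65 at 0.21 and clec-66 at 0.30. clec-64 was dim, at 19.9 and 45.6, and reached the filter on the exposed array only, so it had to read higher. Apart from it, clec-65 and clec-66 lay on the same side as clec-61, and clec-63 on the other.

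clec-67 and clec-85, known as PMK-1-dependent genes in Pseudomonas infection, read close to equal. clec-67 had 1507 and 1384 (−0.12) and clec-85 had 2733 and 2594 (−0.07). A further probe set that names both clec-67 and the pseudogene clec-69, and so is no member, read 817 and 814. clec-86, an X-linked gene induced by Staphylococcus aureus, was lower, from 917 to 611, a difference of −0.57. clec-71, the neighbour of clec-70, was lower too, from 56.4 to 36.9 (−0.45), so these neighbours lay on opposite sides.

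clec-41 and clec-42, studied in infection with Bacillus thuringiensis, were both lower. clec-41 read 2830 and 2234 through a shared probe set (−0.34), and clec-42 read 198 and 132 (−0.54). clec-29 and clec-34, of the same list, were under the filter, at 23.2 and 9.30 and at 22.8 and 8.60. clec-4, also on the list, was higher, at 102 and 139 (0.40). Of the pair tied to survival on Serratia marcescens, clec-39 read 37.7 and 23.2 (−0.45), while clec-49 read 2356 and 2310 (−0.03), a sign that turned with each array centred on its median. clec-39 reached the filter on the control array only, so it had to read lower.

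Others of the list lay near equal signal: clec-47 at −0.03, which also turned under that centring, clec-174 at 0.07, clec-186 at 0.13 and clec-82 at 0.21. clec-209 had no probe set of its own. A probe set naming it together with F56A4.2 read 196 and 86.8, a difference of −1.04 that cannot be given to either gene.

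**Figure D4:**
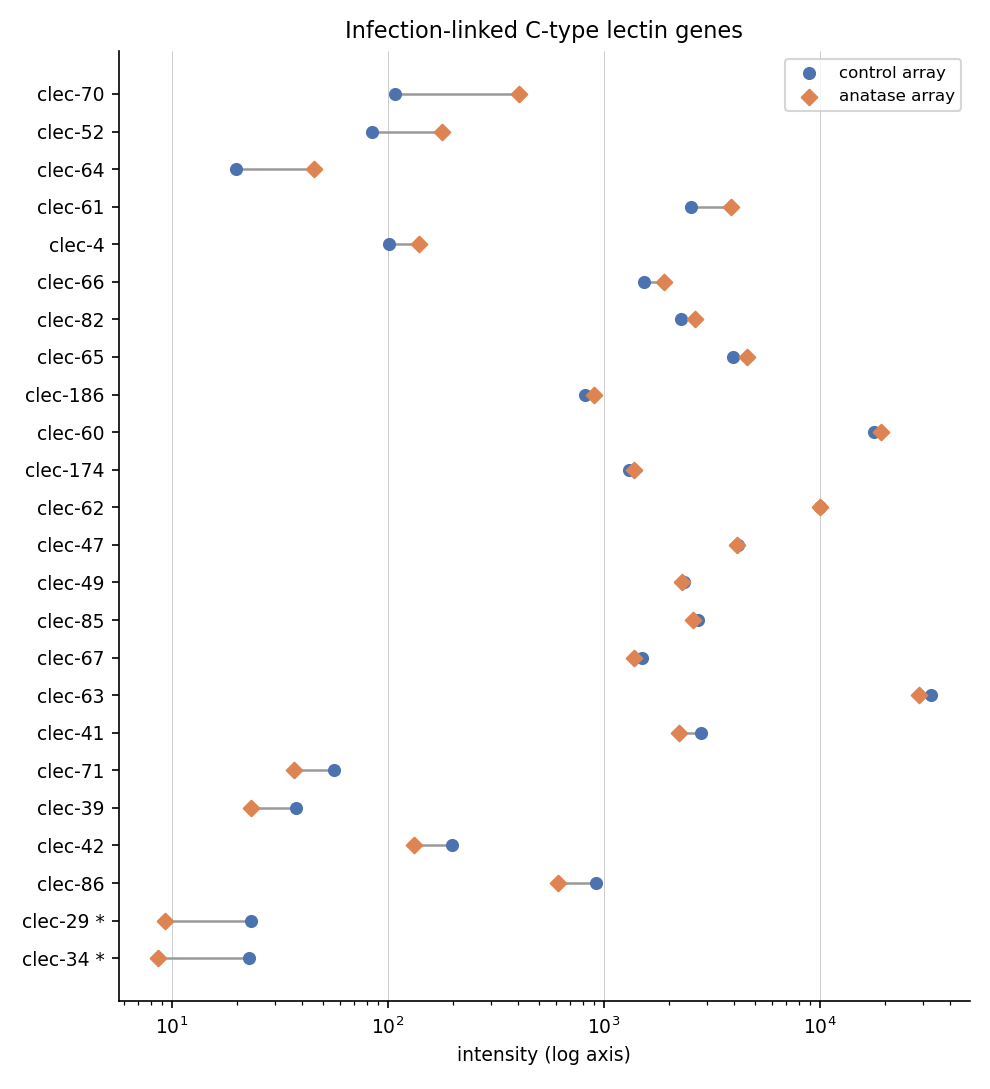
Intensities (horizontal, log axis) on the control array (circles) and the anatase array (diamonds) of the 24 measured infection-linked lectins, in order of their difference. A star marks the 2 genes under the brightness filter, and most bright genes show nearly overlapping symbols while clec-70, clec-64 and clec-52 show long lines to the right.

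None of the 10 brightest members differed by as much as 0.5 log2 units. clec-50 read 15505 and 15681 through a shared probe set, a difference of 0.02 that was 0 after quantile normalization. clec-1 read 7846 and 7697 and clec-83 read 5058 and 4921, with differences of −0.03 and −0.04, both above 0 after centring each array on its median. clec-91 went from 5328 to 4268, a difference of −0.32. Among the 10 brightest genes the differences ran from −0.32 to 0.21, and 5 of them were lower.

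In the brightest group the lowest value belonged to clec-10. Its 2 probe sets read 953 and 529 and, for the shared one, 1055 and 701, with differences of −0.83 and −0.58. Both differences lay on the same side and their gap was 0.25. clec-5, named after its value was seen, read 2208 and 1442 through a shared probe set (−0.61). clec-38, a gene linked to axon guidance, was dark on both arrays, at 2.50 and 1.80.

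Genes with more than 1 probe set offered the only repeat readings. Of 12 compared lectins with several probe sets, 10 had them all on the same side of 0. The median gap between the highest and the lowest difference of a gene was 0.16 log2 units. clec-150 had −0.37 and −0.34 from 2 probe sets made for it alone, at 3953 and 3062 and at 1540 and 1214. clec-87 had −0.15 and −0.11 and clec-65 had 0.22 and 0.19, from shared probe sets in both genes, and clec-88 had 0.08 and 0.03. These bright genes gave small differences that repeated between probe sets.

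Among dimmer genes the gap between the differences of a gene's probe sets varied from gene to gene. clec-72 had 0.64 from its own probe set and 0.15 from a shared one, clec-55 had 0.34 and 0.65, and clec-57 had 0.34 and 0.03. clec-208 had −0.05 and −0.11, and their mean turned positive after the loess correction and after quantile normalization. clec-8 had −0.0047 and 0.06. The 3 probe sets of clec-78 read 72.5 and 57.8, 21.1 and 30.9, and 38.6 and 3.10, with differences of −0.26, 0.34 and −1.52. Its mean of −0.48 therefore rests on the shared probe set, and turned positive without it.

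Many clec genes sit side by side in the genome. Runs were formed in the RefSeq table where at most 2 other genes lie between neighbours, and 10 runs had at least 4 measured members. They held 62 members, of which 46 passed the filter. Members in runs had a median of −0.12 and those outside runs, 91 genes, one of −0.08. In 4 runs all compared members were lower, but these 4 had 3 or fewer compared members each.

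The run from clec-67 to clec-79 on chromosome IV had 10 compared members, 6 of them higher. On that chromosome 48.9% of all genes compared were lower. Besides clec-70, the higher ones included clec-79 (254 and 354, difference 0.45), clec-76 (67.5 and 95.7, 0.42), clec-72 and clec-73 (258 and 306, 0.23). The lower ones were clec-74 (75.8 and 48.1, −0.52), clec-71, clec-67 and the pseudogene clec-69 (38.6 and 34.6, −0.11). A probe set that names clec-73 and clec-79 together read 428 and 547, on the same side as both genes. No other member of this run came near the 1.76 of clec-70.

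In the run from clec-40 to clec-33 on chromosome V, 7 of 10 compared members were lower, with a median of −0.23. Of all genes compared on that chromosome 58.5% were lower. The count was 7 of 10 under each of the 3 scalings as well. clec-27 went from 99.7 to 45.2 (−0.92), clec-40 from 248 to 152 (−0.65), clec-35 from 120 to 77.0 (−0.55) and the pseudogene clec-23 from 103.6 to 65.4 (−0.56). clec-37, within the same run, was higher at 0.71, and clec-31 (0.11) and clec-33 (0.12) were higher by less. Each of these 10 genes was read by 1 probe set made for it alone.

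In the run clec-62 to clec-66 on chromosome II 4 of 5 members were higher, with a median of 0.21. Of these, clec-62 was at 0.0032, and clec-64 reached the filter on the exposed array only, so it had to read higher. Of all genes compared on that chromosome 51.5% were lower. In the run clec-57 to clec-55 on chromosome V, clec-227 (290 and 365, 0.32), clec-55 and clec-57 were higher, and clec-56 (1498 and 1215, −0.30) and clec-54 (775 and 619, −0.32) lower. The run clec-94 to clec-99 on chromosome I had 3 compared members, all lower, of which clec-99 (71.9 and 30.5) was at −0.92, clec-97 (259 and 195) at −0.38 and clec-98 (38.3 and 33.3) at −0.14, and 1 of the 3 was higher after the loess correction and after quantile normalization. In the run clec-127 to clec-134, clec-127 (61.1 and 31.1) was at −0.71 and clec-133 (66.8 and 47.3) at −0.39 beside clec-134. Of these, clec-134 reached the filter on the control array only. The 5 other members of the run were under the filter, with clec-128 at −0.79. The rest of them were higher: clec-129 at 0.67, clec-130 at 0.82, clec-131 at 0.13 and clec-132 at 0.88. Directions were mixed in all 6 runs with more than 3 compared members, except that all 4 members from clec-151 to clec-154 were higher after the loess correction and after quantile normalization. Neighbours of like sequence can bind each other's probes, and the part of this in the readings was not tested.

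**Figure D5:**
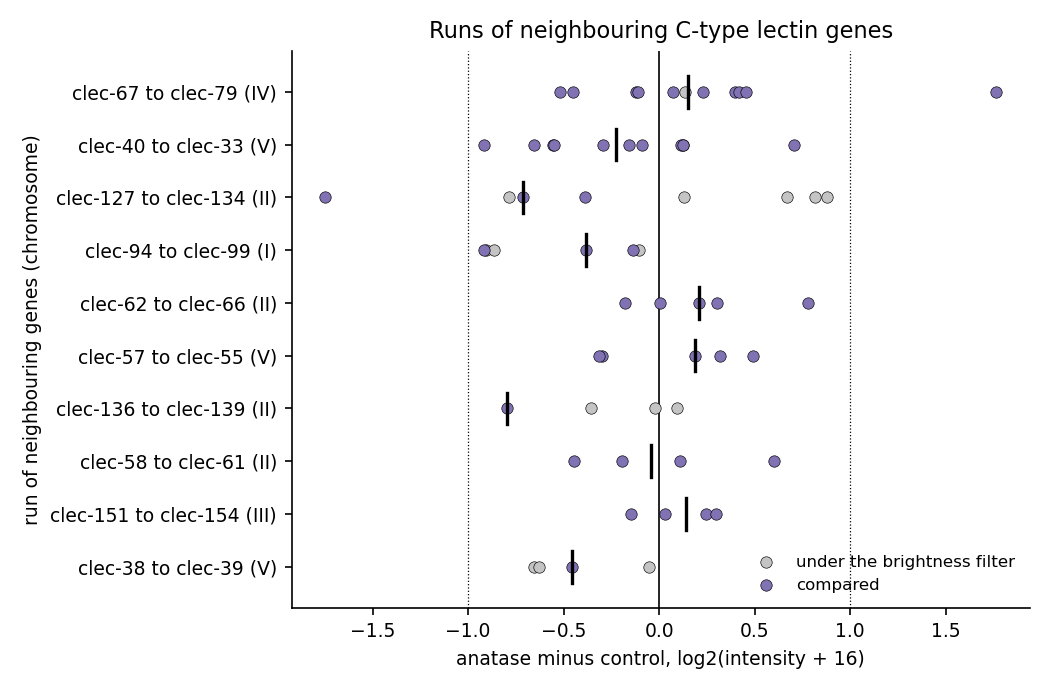
Difference on the log2(intensity + 16) scale (horizontal, exposed minus control) of each measured lectin in the 10 runs of neighbouring genes, with the chromosome in brackets, grey where under the brightness filter. Black bars mark the median of the compared members, and dotted lines mark 2-fold, passed by clec-70 in the run clec-67 to clec-79 and by clec-134.

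The 83 members under the filter read at most 30.9 (control) and 25.1 (exposed). Of the 18 annotated pseudogenes, 9 passed the filter, and the brightest pseudogene reading was 103.6, against 32699 among protein-coding members. A further 22 probe sets named a clec gene together with another gene and were left out of all counts, 15 of them naming clec genes alone. Of these 22, 10 were lower, 3 by 2-fold or more, and 0 were 2-fold higher, by intensity alone since no test was possible. Over all 887 probe sets that name several genes, with no brightness filter, 4.85% were 2-fold lower and 2.03% 2-fold higher. The 3 were the probe set of clec-209, that of clec-45 and clec-46 (33.4 and 8.30), and a dim probe set of clec-118 and clec-144 (60 and 11.6), whose companions for the same pair read 26.7 and 32.4, and 0.80 and 9.80.

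Regulators known to act on such genes were read on the same arrays. Of 20 listed immune regulators 19 were compared, 11 higher and 8 lower, and 0 passed 2-fold, by intensity alone, against 1.66% higher and 3.07% lower of all genes compared. The lowest was elt-2, the intestinal GATA factor, at 395 and 255, a difference of −0.60 as the mean of 2 probe sets made for it alone. pmk-1, which encodes the p38 kinase, read 404 and 303 (−0.40). skn-1, a stress-response transcription factor, was the highest, at 116 and 173 (0.51). sek-1, the kinase upstream of PMK-1, was at 0.24, so the members of this pathway did not lie on 1 side.

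Tissue markers were read beside these values, since whole worms hold all tissues. Over all genes compared, 53.2% were lower, and 45.7% to 49.3% under the 3 scalings. Of 10 intestinal markers 7 were lower, with and without rescaling, from −2.65 for mtl-2 to 0.16 for ges-1. All 6 hypodermal markers were lower, from −0.37 to −0.05, of which 1 was higher under median centring and under quantile normalization. Of 6 compared sperm markers 4 were higher, from −0.42 to 0.54, and 5 after the loess correction and after quantile normalization. Of 6 oocyte and germline markers 4 were higher, from −0.18 to 0.09, and 5 under median centring. Muscle markers ran from −0.15 to 0.43, neuronal markers from 0.01 to 0.29, coelomocyte markers from −0.18 to 0.34 and pharyngeal markers from −0.33 to 0.58. Every measured marker of these lists passed the filter, and the part of tissue composition in the lectin values was not tested.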

How the data were processed

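Whole-worm RNA was labelled from 6 µg of total RNA and hybridised to Affymetrix arrays, per the labels' protocols. The authors deposited linear intensities, with 1 value for each probe set on each array. Per the submitters' processing notes, Transcriptome Analysis Console was used. Its version, summary algorithm and scaling are not stated there, and the values carry no detection calls.

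Genes were named from the platform annotation, and the gene numbers of the clec members were looked up in RefSeq (WBcel235), with 0 unmatched and 0 differing symbols. No coordinates are given, since no build is named for the array. No sequence table was used, so the planned protein and promoter letter searches were not run. Log2(intensity + 16) values were averaged over a gene's probe sets. Shared probe sets are those whose suffix marks them as able to bind related transcripts. The 4 brightness groups are equal parts of the 13605 genes compared. With 1 array per group there was no test and no standard error. Precision is limited by the number of arrays.

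Named genes are the 10 largest differences in each direction, the 10 brightest, those with several probe sets, the infection list, clec-38, clec-87 and clec-88, and runs of neighbours. Members and lists were chosen with earlier results of these data known. Alternatives were 3 scalings (median centring, quantile normalization, and loess over 30% of the points), the filter left out or set at the median, each gene's brightest probe set, no shared probe sets, pseudocounts of 1 and 64, and thresholds of 1.5-fold and 3-fold. The steps were tested on simulated data, with planted changes above 2-fold in genes brighter than the median gene. Recovery of smaller changes and of changes in dim genes was not tested. Python 3.11.15, numpy 2.4.6, pandas 2.3.3, statsmodels 0.14.6 and matplotlib 3.10.9 were used.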

Additional observations from a re-analysis of the deposited data

How the results depend on the processing

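No paired analysis was possible because there is a single array in each group. The 2-fold counts of 4 lectins higher and 8 lower became 8 and 16 at a pseudocount of 1 (5.84% and 11.7%). All genes compared gave 3.12% and 5.92% there. The counts were 1 and 1 at a pseudocount of 64 (0.0881% and 0.176% of all genes), and likewise with the filter at the median (0.284% and 0.613%). In both settings these were clec-70 and clec-101. At 1.5-fold the counts became 11 and 23 (8.03% and 16.8%, against 4.69% and 9.58% of all genes). They were 1 and 1 at 3-fold (clec-70 and clec-134, against 0.169% and 0.559% of all genes). A filter reached on both arrays, chosen after seeing the data, also gave 1 and 1. The other alternatives gave 3 to 6 higher and 6 to 10 lower, against 1.58% to 2.13% and 2.23% to 3.80% of all genes. The count of lower lectins was 129 without a filter and 30 at the median filter, since these test more and fewer genes. The family median of −0.08 was 0.041 with the filter at the median and stayed negative, from −0.13 to −0.02, in the other alternatives. The infection list's median of 0.04 was −0.012 with no filter, which adds clec-29 and clec-34, and stayed positive, from 0.04 to 0.09, in the others. Counting only protein-coding genes and pseudogenes between neighbours, also chosen after seeing the data, gave 11 runs in place of 10. With dim members near the floor and no detection calls, signal over background is unknown.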

Other observations

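By chromosome, the compared lectins of chromosome V were mostly lower (32 of 44, median −0.21), and so were those of chromosome I (12 of 16, median −0.29). Those of chromosome IV were more often higher (19 of 33, median 0.11), as were those of chromosome II (17 of 30, median 0.01). Under median centring, the loess correction and quantile normalization the medians of chromosomes V and I stayed negative and those of IV and II positive. The lower lectins were then 27, 28 and 28 of 44 on chromosome V, and 12, 11 and 11 of 16 on chromosome I. These counts include lectins that reached the filter on a single array, whose sign the filter fixed. The 11 compared lectins of chromosome III had a median of −0.15, which turned positive after the loess correction (0.04) and quantile normalization (0.04). Of all genes compared, 58.5% of those on chromosome V were lower, 47.7% on I, 48.9% on IV, 51.5% on II and 48.3% on III, against 53.2% over all chromosomes. The 4 lectins at least 2-fold higher lie on chromosome IV, where 1.21% of all genes compared were 2-fold higher, and clec-182, clec-190 and clec-202 of these passed the filter through the exposed array only. No test was possible, and neighbours on a chromosome may share probe binding.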
